A study of Mus musculus with 8 samples.

Results

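Actin cytoskeleton and contractile genes were followed in cultured mouse embryonic fibroblasts, the matrix-forming cells of connective tissue. The 10 genes, Actb, Actg1, Acta2, Tagln, Vim, Tpm1, Myl9, Cnn1, Cnn2 and Vcl, were taken by Ensembl identifier. They were 10 of 28785 genes listed in at least 1 of 4 RNA-seq libraries. All cells carried the genotype TSC2+/+ on the strain C57BL/6J. The chromatin_unstressed and cytoplasm_unstressed libraries came from cells without heat shock. The chromatin_heat_shock and cytoplasm_heat_shock libraries came from cells held at 42 °C for 1 h and then at 37 °C for 3 h. Chromatin RNA was taken from the pellet left after nuclei were lysed in a urea buffer, cytoplasmic RNA from the lysate above a sucrose cushion, and alpha-amanitin, an inhibitor of RNA polymerase II, was in the lysis buffers. Each group had 1 library, so differences could not be checked against a spread between replicates and none was tested. In such bulk samples, fewer cells expressing a gene and less RNA per cell cannot be told apart. The 2 m6A immunoprecipitation libraries of chromatin RNA and their 2 inputs were not analysed here.

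Actin is the protein that assembles into the filaments of the cytoskeleton. Fibroblasts build these filaments mainly from beta-actin and gamma-actin, while alpha smooth muscle actin, transgelin, calponin and myosin light chain mark cells with a contractile programme. Many of these genes are transcribed under serum response factor (SRF), whose coactivators MRTF bind actin monomers, so the state of the filaments feeds back on the genes that supply them. SRF binds a DNA element called the CArG box.

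The promoter windows that hold a CArG box are shown because this element is the sequence feature by which the genes are usually grouped. RefSeq windows of the build GRCm38.p6, from 250 bases before to 50 after an annotated start, were found for 8 of the 10 genes; Actb and Tagln had none. A strict CArG box, with no mismatch allowed, was searched on both strands and is the same on either. It was found in 4 of the 8 windows and in 1.63% of all 32851 windows of 300 bases. Each window is written 5′ to 3′ on the strand of the gene, with the box in capitals.
Actg1, chr11:120348446-120348745, minus strand: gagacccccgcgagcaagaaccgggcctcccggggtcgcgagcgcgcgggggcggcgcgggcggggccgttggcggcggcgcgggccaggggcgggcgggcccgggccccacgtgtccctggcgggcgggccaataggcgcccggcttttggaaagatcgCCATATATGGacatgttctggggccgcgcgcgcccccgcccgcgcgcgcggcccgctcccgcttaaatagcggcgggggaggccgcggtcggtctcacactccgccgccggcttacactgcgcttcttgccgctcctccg
Vcl, chr14:20929148-20929447, plus strand: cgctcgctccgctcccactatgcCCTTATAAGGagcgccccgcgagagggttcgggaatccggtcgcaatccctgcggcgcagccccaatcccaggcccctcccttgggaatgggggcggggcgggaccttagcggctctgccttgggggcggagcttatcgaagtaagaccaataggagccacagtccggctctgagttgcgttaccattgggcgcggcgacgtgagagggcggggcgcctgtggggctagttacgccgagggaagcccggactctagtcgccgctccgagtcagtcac
Cnn2, chr10:79988350-79988649, plus strand: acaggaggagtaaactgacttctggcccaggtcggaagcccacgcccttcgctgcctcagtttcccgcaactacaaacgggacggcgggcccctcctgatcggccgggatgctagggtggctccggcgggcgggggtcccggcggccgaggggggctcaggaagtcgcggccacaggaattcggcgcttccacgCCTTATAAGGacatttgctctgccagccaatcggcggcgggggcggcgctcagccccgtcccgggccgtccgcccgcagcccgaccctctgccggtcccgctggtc
Myl9, chr2:156775214-156775513, plus strand: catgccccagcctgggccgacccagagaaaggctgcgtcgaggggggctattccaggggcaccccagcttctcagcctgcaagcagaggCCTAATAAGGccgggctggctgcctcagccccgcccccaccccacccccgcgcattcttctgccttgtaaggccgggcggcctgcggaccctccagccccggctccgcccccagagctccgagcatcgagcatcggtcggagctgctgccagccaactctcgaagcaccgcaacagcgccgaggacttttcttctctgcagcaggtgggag
The box began 90 bases before the start in Actg1, 227 in Vcl, 56 in Cnn2 and 161 in Myl9. No match to the strict form was found in the windows of Acta2, Vim, Tpm1 and Cnn1. Forms with a mismatch were not searched, and the Acta2 window holds such a form (ccctatatgg), so these windows cannot be said to lack the element. A pair of elements of heat shock factor sites, each the same on either strand, was searched as well. TTCNNGAA was found in the Vcl window, 200 bases before the start, and in 8.52% of all windows, and GAANNTTC was found in 0 of the 8 windows and in 7.86% of all. A TATA element, searched as TATAAA on both strands, was found in the Vim window, 32 bases before the start, and in 13.6% of all windows. No matches overlapped each other. These are matches of letters in 1 window per gene.

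The totals implied by the values were 18364642 reads for unstressed chromatin, 19536459 for chromatin after heat shock, 8292312 for unstressed cytoplasm and 11131382 for cytoplasm after heat shock. The 10 genes with the most reads held 21.8%, 32.6%, 75.9% and 79.8% of them, in the same order. RPKM (reads scaled to gene length and sequencing depth) is relative to these totals, so a direction was also read on other scales. With every library set to the same RPKM sum, all folds of the chromatin heat shock comparison are multiplied by 0.641, those of the cytoplasmic one by 0.854, and those of chromatin over cytoplasm by 3.18 without and 2.38 after heat shock. Relative to the median of the genes with a mean of at least 1 RPKM (kept genes), the factors are 0.890, 1.44, 0.511 and 0.319. Another scale sets the RPKM sums equal after the 10 genes with the highest mean RPKM over the 4 libraries are left out. Its factors are 0.675, 0.886, 1.46 and 1.11. These genes were ranked by RPKM, and need not be those with the most reads in a library. Ratios between genes of 1 library, and ratios between the folds of genes in 1 comparison, do not depend on the scale. Intervals given beside single genes are exact 95% Clopper-Pearson intervals, computed on reads, for counting error alone.

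Levels of the 10 genes ran from 214 RPKM for Actb to under 0.1 for Cnn1 and Myl9. Values are given as RPKM over the whole gene span with introns, which understates spliced RNA of long genes, so levels are compared within a gene first. Of the 10 genes, 6 were kept by the filter (Actb, Actg1, Vim, Tpm1, Vcl and Acta2), and 4 were below it (Cnn2, Tagln, Cnn1 and Myl9). Their summed reads were 13300 in unstressed chromatin, 17221 in chromatin after heat shock, 11252 in unstressed cytoplasm and 11212 in cytoplasm after heat shock. These were 0.0724%, 0.0881%, 0.136% and 0.101% of the library totals.

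**Figure D1:**
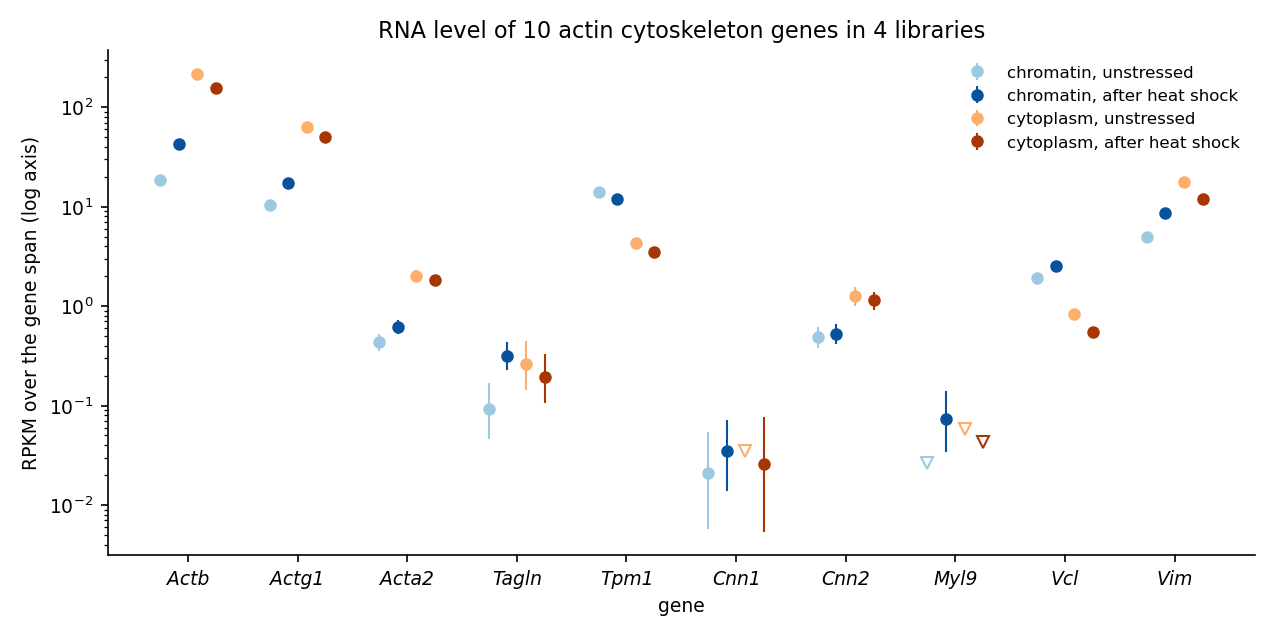
RPKM over the gene span (log axis) of the 10 genes, 1 point per library with its 95% counting interval; open triangles mark the level of 3 reads for genes without a read. Actb, Actg1, Acta2, Cnn2 and Vim lie higher in both cytoplasm libraries, Tpm1 and Vcl higher in both chromatin libraries, and Cnn1 and Myl9 lie below 0.1 RPKM wherever they were listed.

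Actb (ENSMUSG00000029580) encodes beta-actin and lies on chromosome 5 (142903115 to 142907976, GRCm38.p6). It was at 18.6 RPKM in unstressed chromatin, 43.0 in chromatin after heat shock, 214 in unstressed cytoplasm and 156 in cytoplasm after heat shock. Both cytoplasm libraries were far above both chromatin libraries, and the heat-shocked value was the higher in chromatin and the lower in cytoplasm. By RPKM it held rank 189 of 22804 genes, 134 of 26129, 89 of 16818 and 96 of 21167 in these libraries. It was the highest of the 10 genes in every library. Its RefSeq span overlaps that of the lncRNA Gm38733 by 401 bp.

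Actg1 (ENSMUSG00000062825) encodes gamma-actin, the other non-muscle actin, on chromosome 11 (120345687 to 120348495). It was at 10.4 RPKM in unstressed chromatin, 17.3 in chromatin after heat shock, 62.6 in unstressed cytoplasm and 50.2 in cytoplasm after heat shock. The order of the libraries was that of Actb. The ratio of Actb to Actg1 RPKM does not depend on the scale of a library. It was 1.80 in unstressed chromatin (1.62 to 1.99), 2.48 in chromatin after heat shock (2.30 to 2.67), 3.42 in unstressed cytoplasm (3.23 to 3.62) and 3.11 in cytoplasm after heat shock (2.95 to 3.29). Beta-actin RNA thus exceeded gamma-actin RNA least in unstressed chromatin and most in unstressed cytoplasm. The coding sequences of both genes are nearly identical and each has processed copies in the genome, and how reads that match several places were counted is not given in the sources used here, so the split between them is uncertain.

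Acta2 (ENSMUSG00000035783) encodes alpha smooth muscle actin on chromosome 19 (34240336 to 34255585). It was at 0.432 RPKM in unstressed chromatin, 0.618 in chromatin after heat shock, 2.02 in unstressed cytoplasm and 1.81 in cytoplasm after heat shock. It had 113, 172, 239 and 287 reads in these libraries. Like Actb and Actg1 it was higher in both cytoplasm libraries.

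Tagln (ENSMUSG00000032085) encodes transgelin (SM22), an actin binding protein of smooth muscle, on chromosome 9 (45929628 to 45936058). It had 11 reads in unstressed chromatin, 40 in chromatin after heat shock, and 14 in each cytoplasm library, or 0.0931, 0.318, 0.263 and 0.196 RPKM. Its span overlaps that of Pcsk7 by 2480 bp in RefSeq, and whether strand was used in counting is not given in the sources used here, so its few reads are uncertain.

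Cnn1 (ENSMUSG00000001349), which encodes the smooth muscle calponin and lies on chromosome 9 (22099221 to 22109221), had 4 reads in unstressed chromatin, 7 in chromatin after heat shock, 0 in unstressed cytoplasm and 3 in cytoplasm after heat shock. The count of 0 was bounded at 3 reads, which is 0.0350 RPKM. Myl9 (ENSMUSG00000067818) encodes a regulatory light chain of myosin II in smooth muscle and non-muscle cells, on chromosome 2 (156775408 to 156781657). It had 9 reads in chromatin after heat shock (0.0738 RPKM) and 0 in the other 3 libraries. Bounded at 3 reads, these were under 0.0262 RPKM in unstressed chromatin, 0.0580 in unstressed cytoplasm and 0.0432 in cytoplasm after heat shock. Of the 4 genes known from smooth muscle, Cnn1 and Myl9 had at most 9 reads and Tagln at most 40 in any library, while Acta2 had 113 to 287 and held rank 1570 of 16818 genes in unstressed cytoplasm. Markers of other cell types were not analysed here.

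Cnn2 (ENSMUSG00000004665) encodes a calponin that is not restricted to smooth muscle, on chromosome 10 (79988600 to 79995400). It was at 0.488 RPKM in unstressed chromatin, 0.527 in chromatin after heat shock, 1.26 in unstressed cytoplasm and 1.14 in cytoplasm after heat shock, from 67 to 95 reads. The chromatin pair and the cytoplasm pair each lay close together.

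Tpm1 (ENSMUSG00000032366) encodes a tropomyosin, which lies along actin filaments and stabilises them, on chromosome 9 (67022590 to 67049672). It was at 13.9 RPKM in unstressed chromatin, 11.9 in chromatin after heat shock, 4.35 in unstressed cytoplasm and 3.51 in cytoplasm after heat shock. Chromatin was the higher fraction, and the heat-shocked value was the lower in both fractions on the deposited scale.

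Vcl (ENSMUSG00000021823) encodes vinculin, which links actin filaments to cell adhesions, on chromosome 14 (20929383 to 21033676). It was at 1.92 RPKM in unstressed chromatin, 2.53 in chromatin after heat shock, 0.824 in unstressed cytoplasm and 0.554 in cytoplasm after heat shock. It was higher in chromatin like Tpm1. RefSeq places 3 other genes within or across its span, the pseudogenes Gm52168 (108 bp) and Gm30274 (397 bp) and the end of Ap3m1 (571 bp).

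Vim (ENSMUSG00000026728) encodes vimentin, the intermediate filament protein of mesenchymal cells, on chromosome 2 (13574311 to 13582826). It was at 4.94 RPKM in unstressed chromatin, 8.64 in chromatin after heat shock, 17.7 in unstressed cytoplasm and 12.0 in cytoplasm after heat shock. Its rank was 287 of 16818 genes in unstressed cytoplasm and 886 of 22804 in unstressed chromatin, a high level of a marker that fibroblasts share with other mesenchymal cells.

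The reads of the 10 genes were divided differently in chromatin and cytoplasm. These shares are not scaled to gene span, so Tpm1 and Vcl, with the longest spans, weigh more in them than by RPKM. By RPKM in unstressed chromatin, Actb (18.6) was above Tpm1 (13.9) and Vcl (1.92). In unstressed chromatin, Tpm1 gave 51.3% of the reads of the 10 genes (50.5 to 52.2) and Vcl 27.7% (26.9 to 28.4), and Actb gave 9.37% (8.88 to 9.88). In unstressed cytoplasm, Actb gave 57.4% (56.5 to 58.3), Tpm1 8.60% (8.09 to 9.14) and Vcl 6.33% (5.88 to 6.79). After heat shock, Actb gave 17.7% of these reads in chromatin (17.2 to 18.3) and 56.5% in cytoplasm (55.6 to 57.4). Tpm1 then gave 36.3% in chromatin (35.6 to 37.0) and 9.35% in cytoplasm (8.81 to 9.90). The chromatin mix after heat shock was thus richer in Actb and poorer in Tpm1, while the Actb share of the cytoplasmic mix had overlapping intervals in both conditions.

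**Figure D2:**
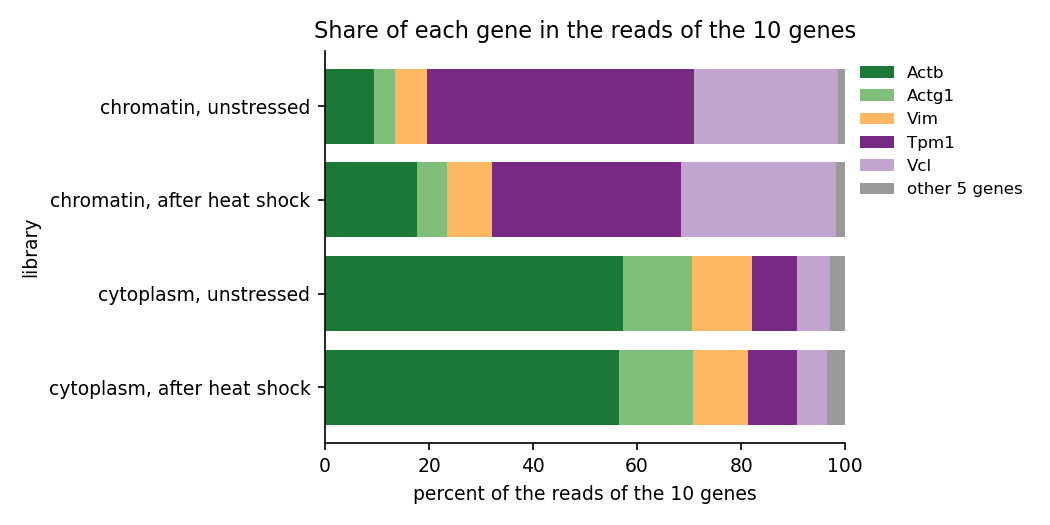
Share of each gene in the summed reads of the 10 genes, in percent and not scaled to gene span, with 1 bar per library. The other 5 genes are Acta2, Tagln, Myl9, Cnn1 and Cnn2. Tpm1 and Vcl fill most of both chromatin bars and Actb over 56% of both cytoplasm bars, and the Actb part of the chromatin bar is 9.37% in unstressed cells and 17.7% in heat-shocked ones.

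In unstressed cells, the RPKM of the actins and vimentin was higher in cytoplasm, and that of Tpm1 and Vcl was higher in chromatin. These values are relative to each library and cover introns, so they do not show where most RNA of a gene lay. Actb was 11.5-fold lower in chromatin (10.8 to 12.2), Actg1 6.04-fold lower (5.47 to 6.67), Acta2 4.68-fold lower (3.73 to 5.91) and Vim 3.58-fold lower (3.28 to 3.91). These directions were the same on the other 3 scales. Cnn2 was 2.58-fold lower (1.84 to 3.63) and Tagln 2.82-fold lower (1.19 to 6.86), but both were above 1 with the same RPKM sum. Tpm1 was 3.19-fold higher in chromatin (2.98 to 3.41) and Vcl 2.33-fold higher (2.15 to 2.53), on each of the 4 scales above 1. The fold of Actb was above that of 2.55% of the 4512 kept genes, and that of Actg1 above 5.23%.

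On the log2(RPKM + 1) scale, which shrinks ratios of low values, 4 of the 6 kept members were at least 2-fold lower in chromatin, as were 11.7% of all kept genes. At least 2-fold higher was 1 of 6, against 32.4% of all kept genes. Counting intervals of the plain fold lay below 1 for 4 of the 6, beside 23.4% of kept genes, and above 1 for 2, beside 62.3%. Acta2 reached the filter mean of 1 RPKM only through cytoplasm (2.02 unstressed, beside 0.432 in chromatin). Vcl reached it only through chromatin (1.92, beside 0.824 in cytoplasm). The sides of Acta2 and Vcl in these counts were thus not independent of the filter. The median log2 ratio of the 6 was -1.37, beside 0.58 for all kept genes. The order of the folds from Tpm1 down was Vcl, Cnn2, Tagln, Vim, Acta2, Actg1 and Actb. Ratios of neighbouring folds excluded 1 between Tpm1 and Vcl (1.36, 1.23 to 1.52), Vcl and Cnn2 (6.02, 4.24 to 8.55), Vim and Acta2 (1.31, 1.02 to 1.68) and Actg1 and Actb (1.90, 1.69 to 2.14). The other 3 neighbouring pairs did not differ beyond counting error. For Cnn1, with 4 reads against 0, no fold can be given.

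Gene span moved with the fraction ratio. Across the 8 members with reads in both libraries, the rank correlation of span with fold was 0.74, a description over genes that share the 2 libraries. Within their span class, all 8 members had a fold below the median of kept genes. Below the lower quartile of the class were 7 of the 8, where 25.0% of kept genes lie, and the exception was Tpm1. The 7 include Cnn2 and Tagln, which were below the filter and so not among the kept genes. Tagln, from 11 against 14 reads, lay at 0.355 with an interval (0.146 to 0.841) that held the lower quartile of 0.818. For genes of over 1 to 5 kb, the class of Actb and Actg1, the median fold was 0.690 and the lower quartile 0.326, beside 0.0871 and 0.166 for these genes. For spans over 100 kb the median was 8.44 and the lower quartile 6.03, beside 2.33 for Vcl. Tpm1, at 3.19, lay close to the median of 3.28 for over 20 to 100 kb. The part of span in these ratios was not tested.

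**Figure D3:**
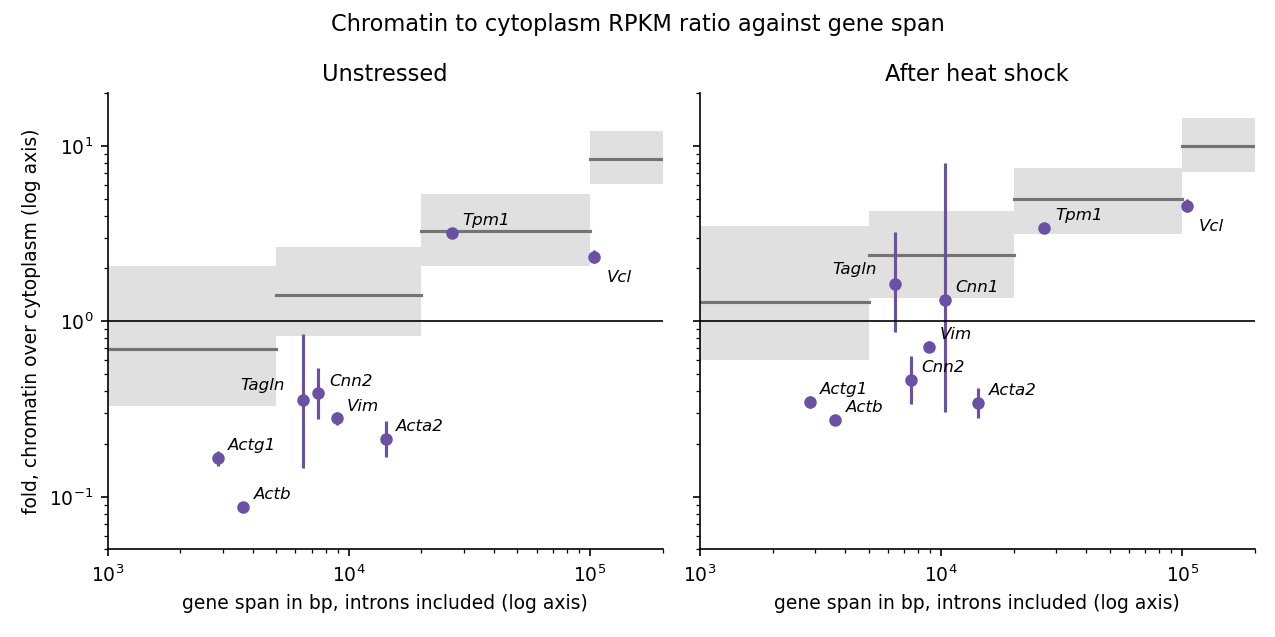
Chromatin over cytoplasm RPKM ratio (log axis) against gene span (log axis), for unstressed cells and after heat shock; points are single genes with 95% counting intervals, grey bands the quartiles and grey lines the medians of kept genes in each span class. The class over 100 kb is drawn to the edge of the plot. All points lie below the median line of their class in both panels.

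After heat shock Actb, Actg1 and Acta2 were again lower in chromatin and Tpm1 and Vcl higher. The median kept gene was 1.96-fold higher in chromatin in unstressed cells and 3.13-fold higher after heat shock. Actb was 3.64-fold lower in chromatin (3.48 to 3.80), Actg1 2.89-fold lower (2.67 to 3.14) and Acta2 2.93-fold lower (2.42 to 3.56), on each of the 4 scales below 1. Relative to the median gene, Actb was at 0.0445 in unstressed cells and 0.0877 after heat shock, Actg1 at 0.0847 and 0.110, and Acta2 at 0.109 in both. Vim was 1.39-fold lower (1.29 to 1.51), but 1.71-fold higher with the same RPKM sum. Cnn2 was 2.17-fold lower (1.59 to 2.96), but 1.10-fold higher with the same RPKM sum. Vcl was 4.56-fold higher in chromatin (4.20 to 4.95) and Tpm1 3.40-fold higher (3.18 to 3.63), above 1 on each scale. Myl9 had 9 chromatin reads and 0 in cytoplasm. With the cytoplasmic level set to 3 reads its fold was 1.71, which leaves out the counting error of the 9 reads. The intervals of its level, 0.0338 to 0.140 RPKM in chromatin and 0 to 0.0531 in cytoplasm, overlapped. Relative to the median gene this fold was 0.545, so the direction depends on the scale. The intervals of Tagln (1.63, 0.867 to 3.24) and Cnn1 (1.33, 0.304 to 7.97) included 1.

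Of the 6 kept members, 2 were at least 2-fold lower in chromatin on the log2(RPKM + 1) scale, beside 6.93% of 4575 kept genes, and 2 at least 2-fold higher, beside 45.8%. Counting intervals lay below 1 for 4 of the 6, beside 13.7%, and above 1 for 2, beside 75.0%. Here too Acta2 and Vcl passed the filter only through the fraction where each was higher. Their median log2 ratio was -0.62, beside 0.92 for all kept genes. These values moved with the scale: with the same RPKM sum the median was 0.28 and 0 members were 2-fold lower, and with the median of all genes at 0, 4 were 2-fold lower and 0 higher. The shares of kept genes move with the scale as well and were not counted on these scales. Vcl now stood above Tpm1 (ratio of their folds 1.34, 1.21 to 1.49), the reverse of their order in unstressed cells. Acta2 and Actg1 did not differ beyond counting error (1.01 between their folds, 0.820 to 1.25), nor did Cnn2 and Actg1 (1.34, 0.966 to 1.85). Actb remained lowest, with Acta2 above it by 1.24-fold (1.02 to 1.51). Of the 9 members with reads in both libraries, 9 lay below the median of their span class. Below its lower quartile, where 25.0% of kept genes lie, were 7, and the exceptions were Tagln and Tpm1. The 7 include Cnn1 and Cnn2, which were below the filter. Cnn1, from 7 against 3 reads, lay at 1.33 beside a lower quartile of 1.36, well within its interval (0.304 to 7.97). The rank correlation of span with fold over the 9 was 0.62.

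Heat shock in chromatin was compared next, to show how RNA held at chromatin differed 3 h into recovery. Actb was 2.31-fold higher (2.16 to 2.46), and above 1 on each of the 4 scales. Vim was 1.75-fold higher (1.61 to 1.91) and Actg1 1.67-fold higher (1.51 to 1.86), and both stayed above 1 on every scale, with 1.12 and 1.07 at the same RPKM sum. Tagln was 3.42-fold higher (1.72 to 7.39) from 40 against 11 reads, and above 1 on every scale. Myl9 had 9 reads against 0. With the 0 set to 3 reads, its fold was 2.82 as deposited and 1.81 with the same RPKM sum. These folds leave out the counting error of the 9 reads. The interval of the Myl9 level was 0.0338 to 0.140 RPKM after heat shock, beside 0 to 0.0322 in unstressed chromatin. Acta2 (1.43, 1.12 to 1.83) and Vcl (1.31, 1.26 to 1.37) were higher on the deposited scale but at 0.917 and 0.842 with the same RPKM sum. Tpm1 was 1.16-fold lower (1.12 to 1.20), and below 1 on every scale. The intervals of Cnn1 (1.65, 0.418 to 7.66) and Cnn2 (1.08, 0.768 to 1.52) included 1.

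Of the 9 members with reads in both chromatin libraries, 8 had a fold above 1 as deposited, 5 with the same RPKM sum and 7 relative to the median gene. The median fold of kept genes as deposited was 1.12, with quartiles of 0.776 and 1.67, and their share above 1 was not counted. At least 2-fold higher on the log2(RPKM + 1) scale was 1 of the 6 kept members, Actb, beside 10.4% of 4635 kept genes, and 0 were 2-fold lower, beside 4.66%. Actb was not past 2-fold with the same RPKM sum (log2 ratio 0.55) or with the 10 highest genes left out (0.62). Counting intervals lay above 1 for 5 of 6, beside 46.7% of kept genes, and below 1 for Tpm1, beside 31.6%. With the same RPKM sum they lay above 1 for 2 (Actb and Vim) and below 1 for 2 (Tpm1 and Vcl), and the interval of Actg1 included 1. The shares of kept genes on that scale were not counted. The median log2 ratio of the 6 was 0.48, beside 0.12 for all, and 0.018 with the same RPKM sum. The Actb fold was above that of 87.4% of kept genes, Vim 77.4%, Actg1 75.2%, Acta2 66.7%, Vcl 61.0% and Tpm1 31.2%. Actb thus stood in the upper part of the distribution, and Tpm1 in the lower.

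The chromatin folds differed among the members by more than counting error, whatever the scale. Pairs of the more abundant genes were chosen after their values were seen. The Actb fold exceeded that of Actg1 by 1.38-fold (1.21 to 1.56), that of Vim by 1.32-fold (1.18 to 1.47) and that of Tpm1 by 2.68-fold (2.49 to 2.89). The Vcl fold exceeded that of Tpm1 by 1.53-fold (1.45 to 1.61). Vim and Actg1 did not differ beyond counting error (1.05, 0.910 to 1.20), nor did Acta2 and Vcl (1.09, 0.851 to 1.40). Shorter spans went with larger folds among the 9 members (rank correlation -0.67). Above the upper quartile of their span class were 5 of the 9 (Actb, Tagln, Vim, Cnn1 and Vcl), where 25.0% of kept genes lie. Of these, Tagln (40 against 11 reads) and Cnn1 (7 against 4) were below the filter and so not among the kept genes. Kept genes of over 1 to 5 kb had a median fold of 1.37 and an upper quartile of 2.11, which Actb exceeded and Actg1 did not. The Tpm1 class, over 20 to 100 kb, had a median of 1.01 and a lower quartile of 0.727, and Tpm1 lay between them at 0.860. Vcl, with the longest span of the 10, had a fold of 1.31 beside a median of 0.788 and an upper quartile of 1.13 for spans over 100 kb.

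**Figure D4:**
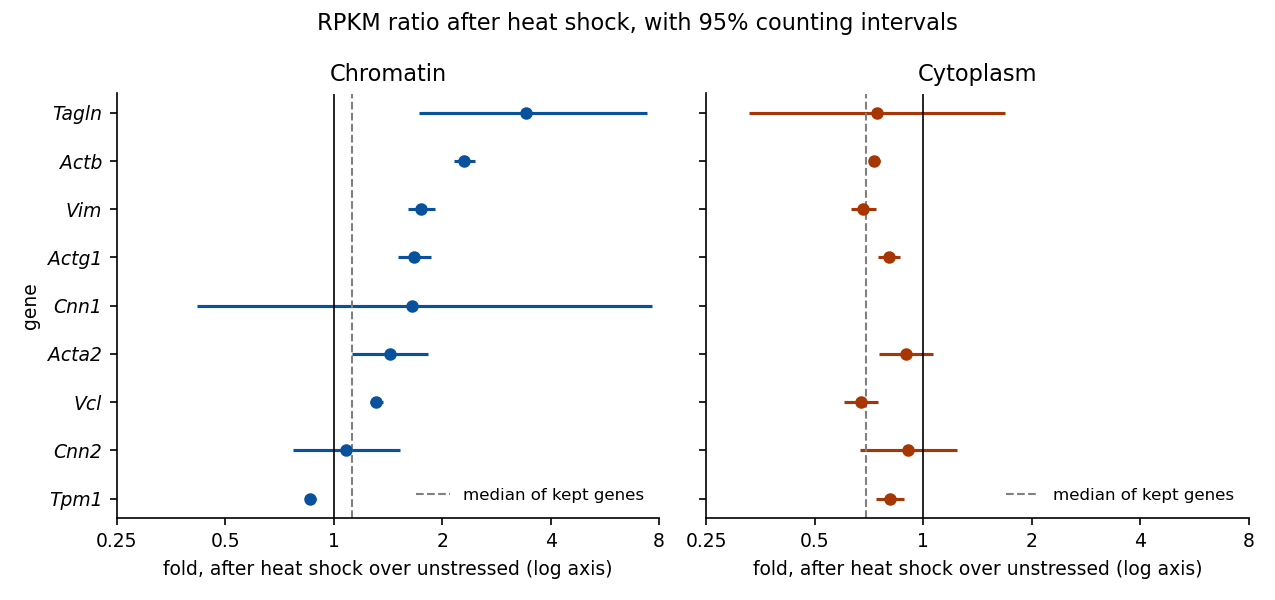
RPKM ratio after heat shock over unstressed (log axis) for the genes with reads in both chromatin libraries, with 95% counting intervals; the dashed line is the median of kept genes. Chromatin points run from 0.860 for Tpm1 to 3.42 for Tagln, while cytoplasm points all lie between 0.673 and 0.907, on both sides of the dashed line at 0.692; Cnn1 has no cytoplasmic fold.

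In cytoplasm the heat-shocked levels were lower for each of the 8 members with reads in both libraries. The folds ran from 0.673 for Vcl to 0.907 for Cnn2. Actb was 1.37-fold lower (1.32 to 1.42), Vim 1.47-fold lower (1.36 to 1.59), Vcl 1.49-fold lower (1.33 to 1.66), Actg1 1.25-fold lower (1.16 to 1.34) and Tpm1 1.24-fold lower (1.13 to 1.35). The intervals of Acta2 (0.895, 0.751 to 1.07), Cnn2 (0.907, 0.665 to 1.24) and Tagln (0.745, 0.329 to 1.69) included 1. The median kept gene was also lower, at a fold of 0.692, and the upper quartile of kept genes was 0.853. A lower level was thus common to most kept genes, whose exact share below 1 was not counted. Relative to the median gene 6 of the 8 plain folds were above 1, and those of Vim (0.984) and Vcl (0.972) below. Counting intervals of these plain folds lay above 1 for 4 of the 6 kept members (Actb, Actg1, Acta2 and Tpm1) and below 1 for 0. By definition as many kept genes lie above the median gene as below it. The share of kept genes with an interval off 1 on this scale was not counted. On the log2(RPKM + 1) scale with the median at 0, Actb (-0.20), Actg1 (-0.059) and Vim (-0.26) were below. Acta2 (0.15), Vcl (0.022) and Tpm1 (0.0057) were above. The side of the median gene thus changed with the pseudocount for Actb, Actg1 and Vcl. The direction as deposited was thus that of the median gene, and it held with the same RPKM sum and with the 10 highest genes left out of the scale.

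In cytoplasm, 0 of the 6 kept members were at least 2-fold higher and 0 at least 2-fold lower on the log2(RPKM + 1) scale, beside 3.40% and 2.44% of 4505 kept genes. Counting intervals lay below 1 for 5 of the 6, beside 64.5% of kept genes, and above 1 for 0, beside 8.21%. The median log2 ratio of the 6 was -0.28, beside -0.25 for all. In the order of the folds, 0 of the 7 neighbouring pairs, which are the closest ones, differed beyond counting error. All 4 other pairs compared did. The Actb fold was lower than that of Actg1 (ratio 0.910, 0.841 to 0.986) and that of Tpm1 (0.906, 0.824 to 0.996). The Vcl fold was lower than that of Tpm1 (0.834, 0.725 to 0.960), and the Actg1 fold higher than that of Vim (1.18, 1.06 to 1.31).

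The last comparison set the heat shock fold in chromatin against that in cytoplasm for each gene. The ratio of these folds was 3.15 for Actb (2.93 to 3.40), 2.57 for Vim (2.28 to 2.89), 2.09 for Actg1 (1.83 to 2.37), 1.95 for Vcl (1.74 to 2.19) and 1.60 for Acta2 (1.18 to 2.17). For Tagln it was 4.59 from few reads (1.51 to 14.0). The intervals of Tpm1 (1.07, 0.970 to 1.17) and Cnn2 (1.19, 0.746 to 1.90) included 1. The median kept gene had a ratio of 1.62, since chromatin folds were on balance above cytoplasmic ones. Actb was above 87.8% of 4473 kept genes, Vim above 81.0%, Actg1 above 68.4%, Vcl above 64.1%, Acta2 above 49.1% and Tpm1 above 22.6%.

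A higher value in chromatin together with a lower one in cytoplasm after heat shock was seen in 5 of the 6 kept members (all but Tpm1) on the log2(RPKM + 1) scale, beside 46.5% of kept genes. With RPKM + 1 on each of the other 3 scales this was 3 of 6 (Actb, Actg1 and Vim). The shares of kept genes were 20.9% with the same RPKM sum, 23.1% with the 10 highest genes left out and 22.6% with the median at 0. By plain folds relative to the median gene, Actb (2.05 and 1.06) and Actg1 (1.49 and 1.16) were above 1 in chromatin and in cytoplasm. Vim (1.56 and 0.984) and Vcl (1.17 and 0.972) were then higher in chromatin and lower in cytoplasm, with cytoplasmic counting intervals that included 1. A log2 difference of at least 1 toward chromatin was seen in 3 of the 6, Actb, Vim and Actg1, beside 16.5%, and of at least 1 toward cytoplasm in 0, beside 4.52%. With RPKM + 1 on each of the other 3 scales Actb alone had a difference of at least 1 toward chromatin, beside 8.03% to 9.70% of kept genes. With no pseudocount on the deposited scale it was Actb, Vim and Actg1, beside 34.4%. With no pseudocount and relative to the median gene, the Actb difference was 0.96. The median difference of the 6 was 0.75, beside 0.37 for all kept genes. The 10 genes with the most reads took 32.6% of chromatin reads after heat shock and 21.8% without it, and the part of this shift in the members' ratios was not tested.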

How the data were processed

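RNA-seq libraries of chromatin and cytoplasm from unstressed and heat-shocked mouse embryonic fibroblasts were used, 1 per group, with groups taken from the sample titles. The authors deposited 1 RPKM value per Ensembl gene identifier and library, and left out genes without a read. Cutadapt, STAR and the build GRCm38 are named, without versions, per the submitters' processing notes. The read counter, annotation release and strand use were not given in the sources used here.

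Totals, reads and gene spans were recovered from the deposited RPKM values, which are whole multiples of the worth of 1 read (20000 random pairs per library, whole-number tolerance 0.002). The relative error exceeded 1e-12 for 0 genes. The recovered reads summed to 98.4% to 99.7% of the totals. The recovery was tested on simulated data. Spans of the 10 genes, from the values, differed from RefSeq spans of the same symbols by 0 bp (Tagln) to 1222 bp (Actb).

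Ratios were computed as log2((RPKM + 1)/(RPKM + 1)), with a pseudocount of 1 RPKM, for genes whose mean over the 4 libraries reached 1 RPKM and that had reads in both compared libraries (kept genes). Plain folds and ratios of folds carry exact 95% intervals on reads (Clopper-Pearson, or conditional odds ratios), for counting error only. A gene without a read was bounded at 3 reads per library, and folds against this level leave out the counting error of the other library. With no names for other identifiers in the sources used here, lists of other actin genes and of marker genes were matched for 0 genes, and the 10 members are the genes named. The members and lists were chosen with earlier results of these data known. The alternatives were 2 other treatments of the pseudocount, 3 other scales and no filter, and scales combined with plain folds or interval counts, and the counts of opposite directions and of log2 differences on other scales, were added after seeing the data. Python 3.11.15, numpy 2.4.6, pandas 2.3.3, scipy 1.17.1 and matplotlib 3.10.9 were used.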

Additional observations from a re-analysis of the deposited data

Results flagged for a closer look

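For 4 genes the heat shock difference was higher in chromatin and lower in cytoplasm on the deposited scale, with both counting intervals off 1. Without the rule on intervals, 46.5% of 4473 kept genes had these opposite directions. The share of kept genes with both intervals off 1 was not counted. The ratio of the chromatin fold to the cytoplasmic fold was 3.15 for Actb, 2.57 for Vim, 2.09 for Actg1 and 1.95 for Vcl. With 1 library per group, these differences between fractions were not tested. Relative to the median gene, the plain folds of Actb and Actg1 were above 1 in both fractions, but on the log2(RPKM + 1) scale both stayed below the median gene in cytoplasm (-0.20 and -0.059). With the same RPKM sum the Vcl fold was below 1 in both fractions.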

How the results depend on the processing

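The medians over the 6 kept members and the counts past 2-fold depended mostly on the scale, and the cause was not tested beyond the scale itself. The shares of all kept genes past 2-fold under the other settings were not counted. For heat shock in chromatin the median log2 ratio of 0.48 was 0.63 with no pseudocount, 0.018 with the same RPKM sum, 0.37 with the median of all genes at 0, 0.073 with the 10 highest genes left out of the scale and 0.27 without the filter (9 members). The count at least 2-fold higher, 1, was 0 with the same RPKM sum and with the 10 highest genes left out. For heat shock in cytoplasm the median of -0.28 was -0.46 with the same RPKM sum, -0.026 with the median at 0 and -0.43 with the 10 highest genes left out. For the fractions in unstressed cells the median of -1.37 was -1.91 with a pseudocount of 0.1, -2.03 with none, -0.23 with the same RPKM sum, -1.94 with the median at 0, -1.03 with the 10 highest genes left out and -0.84 without the filter (8 members). There, 2 members were at least 2-fold higher with a pseudocount of 0.1, with none, with the same RPKM sum and with the 10 highest genes left out, and 0 with the median at 0, in place of 1. Of 4 that were at least 2-fold lower, 1 was so with the same RPKM sum. For the fractions after heat shock the median of -0.62 was -0.94 with a pseudocount of 0.1, -1.01 with none, 0.28 with the same RPKM sum, -1.53 with the median at 0, -0.48 with the 10 highest genes left out and -0.44 without the filter. There, in place of 2 and 2, 0 were at least 2-fold lower with the same RPKM sum, and 0 higher and 4 lower with the median at 0. The median difference of heat shock ratios, 0.75, was 0.96 with a pseudocount of 0.1, 1.01 with none, 0.39 with the same RPKM sum, 0.38 with the median at 0, 0.42 with the 10 highest genes left out and 0.43 without the filter. The 5 kept members with opposite directions after heat shock were 3, and the 3 with a log2 difference of at least 1 toward chromatin were 1. Both hold for RPKM + 1 with the same RPKM sum, with the median at 0 and with the 10 highest genes left out. Plain folds of chromatin over cytoplasm turned with the same RPKM sum to 1.13 for Tagln and 1.23 for Cnn2 in unstressed cells, and to 1.10 for Cnn2 after heat shock, and the settings for these folds and for the counts before them were chosen after seeing the data. No other fold past 2-fold turned. Of 120 values of single kept members under the planned settings, 43 moved by less than their counting interval, 77 by more and 0 past 2-fold changed direction. Short of 2-fold, the direction did change with the scale for some members. These were Acta2 and Vcl for heat shock in chromatin, Acta2, Tpm1 and Vcl in cytoplasm, and Vim for the fractions after heat shock. No paired analysis was possible because each group had 1 library. Depth limits Tagln, Cnn1 and Myl9, with at most 40 reads in any library.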
